A study of Mus musculus with 8 samples.

Results

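Surfactant protein genes and other genes typical of the alveolar type 2 cell were described in whole mouse lung after mepenzolate, a muscarinic acetylcholine receptor antagonist. The 10 genes were given by name: Sftpa1, Sftpb, Sftpc, Sftpd, Abca3, Lamp3, Napsa, Slc34a2, Lpcat1 and Etv5. All 10 were found among the 19937 genes with an array probe of their own, and the brightest probe of a gene stood for it. The 4 groups were mice given vehicle and sampled at 7 h, given mepenzolate and sampled at 7 h, and the same treatments sampled at 25 h, with 2 arrays each and 8 in all. The labels of all 4 groups carry the same dosing procedure, delivery in PBS into the trachea under chloral hydrate (500 mg/kg). The mepenzolate dose, the strain, sex and age of the mice and any pretreatment were not given in the sources used here, and the vehicle is not described. Nothing in the labels ties an array to its own animal, so the p-values reflect the scatter among these samples alone, part of which may be technical. The study asked what mepenzolate does to inflammation and oxidative stress in lung.

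Alveolar type 2 cells make pulmonary surfactant, the film of lipid and protein that lowers surface tension and keeps alveoli open at the end of expiration. Its phospholipids and the hydrophobic proteins SP-B and SP-C are assembled in lamellar bodies and secreted, while the collectins SP-A and SP-D also bind microbes. Transcription of these genes depends on the lung factor NKX2-1, with FOXA and C/EBP proteins among its partners. In whole lung RNA, fewer cells of a type and less RNA per cell cannot be told apart.

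The 150 bases before the start of Sftpb, Sftpa1, Slc34a2 and Lamp3 are shown because they hold short motifs of these factors, whose own genes were measured on the same arrays. The sequences are from RefSeq (GRCm38.p6), written 5′ to 3′ along the gene and ending at the base before its start. Capitals mark matches on either strand. The motifs searched were, for NKX2-1, CTCAAG and also CAAGTG, for the FOXA factors TGTTTNC, for the C/EBP factors TTGCNNAA, and for the TATA box TATAAA.
Sftpb, chr6:72304460-72304609, plus strand: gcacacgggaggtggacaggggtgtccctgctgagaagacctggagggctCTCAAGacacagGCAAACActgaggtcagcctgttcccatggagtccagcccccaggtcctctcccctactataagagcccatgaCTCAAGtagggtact
Sftpa1, chr14:41131638-41131787, plus strand: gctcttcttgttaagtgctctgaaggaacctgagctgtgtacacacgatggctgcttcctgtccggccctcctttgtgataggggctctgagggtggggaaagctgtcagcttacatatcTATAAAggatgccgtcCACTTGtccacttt
Slc34a2, chr5:53049203-53049352, plus strand: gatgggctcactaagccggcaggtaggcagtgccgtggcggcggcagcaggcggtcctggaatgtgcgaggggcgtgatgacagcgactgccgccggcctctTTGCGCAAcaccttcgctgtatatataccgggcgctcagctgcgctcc
Lamp3, chr16:19706366-19706515, minus strand: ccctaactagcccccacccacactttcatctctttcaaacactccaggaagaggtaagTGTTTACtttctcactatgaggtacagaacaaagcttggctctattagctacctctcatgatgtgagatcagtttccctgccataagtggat
Counting the base before the start as -1, Sftpb held CTCAAG from -100 to -95 and from -15 to -10, on either side of a FOXA match in the opposite orientation from -88 to -82. In Sftpa1 the TATA box ran from -30 to -25 and CAAGTG in the opposite orientation from -14 to -9. The C/EBP match of Slc34a2 reads the same on both strands. Of the 10 genes 7 had a promoter sequence in the table used. The Abca3 sequence among them does not lie at the annotated start of that gene and held none of the motifs. Within 250 bases upstream, CTCAAG was present in 2 of these 7 (Sftpa1 and Sftpb) and in 13.3% of all 32851 windows of that length. CAAGTG was present in 1 (Sftpa1, 11.6% of all), TGTTTNC in 3 (Sftpb, Lamp3 and Etv5, 17.8%), TTGCNNAA in 1 (Slc34a2, 9.56%) and TATAAA in 1 (Sftpa1, 12.4%). The NKX2-1 motifs can overlap each other. These matches are descriptions of the letters.

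All 10 genes lay well above the median value of every array (6.77 at most), at 9.36 to 13.56, so the type 2 cell's markers were present in every sample. The range between the lowest and the highest array had a median of 0.20 log2 units over the 10 genes, against 0.31 over all 14953 genes tested. For the 2184 tested genes at least as bright as the dimmest of the 10, the median was 0.24. Levels are log2 values, so a difference of 1 is a doubling, and levels of different probes are not compared. No member passed limma in any comparison (0 of 10, threshold adjusted p 0.05), nor did any member reach an unadjusted p under 0.05 with the settings used throughout.

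The array data as a whole were similar from sample to sample, but 1 array stood apart in several cell type lists. Correlations across probes were 0.988 to 0.993 both for the 4 replicate pairs and for the 24 pairs from different groups. After each gene was centred on its mean over the arrays, the 16 club and airway secretory markers averaged -0.45 on the second mepenzolate array at 7 h and -0.067 to 0.24 on the others. The 16 ciliated cell markers averaged -0.45 on it and -0.11 to 0.22 elsewhere, and 11 liver markers 0.51 against -0.18 to 0.021. Its albumin level (Alb) was 8.93, against 5.94 to 6.39 on the other 7. Of the 11 liver markers only 6 were bright enough to enter the tests, and these did not move alike. Besides Alb, Ahsg, Apoa1 and Apoa2 were highest on this array. Hpx hardly differed (6.86 against 6.58 to 6.84), and Trf was lowest on it (11.44 against 11.48 to 11.75). The mean of the 10 surfactant and type 2 genes was -0.036 on that array and -0.052 to 0.068 on the others, so it lay within the range of the others.

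**Figure D1:**
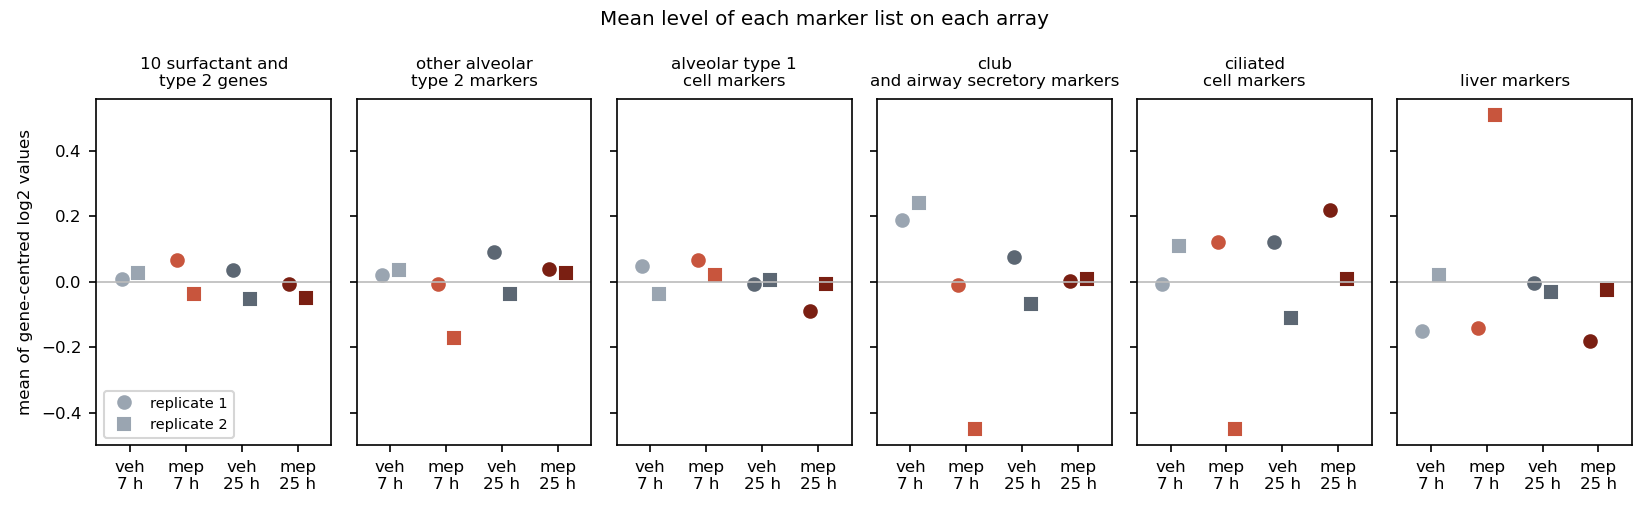
Mean of gene-centred log2 values (y axis) of 6 gene lists on each of the 8 arrays, by group (x axis, veh for vehicle and mep for mepenzolate, at 7 h or 25 h). Circles are replicate 1 and squares replicate 2. The 10 surfactant and type 2 genes lie between -0.052 and 0.068, while the second mepenzolate array at 7 h is at -0.45 for club and ciliated markers and at 0.51 for liver markers.

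Of the surfactant proteins, Sftpc was the steadiest. It encodes SP-C, a hydrophobic lipopeptide made by type 2 cells. Its levels were 13.55 and 13.52 in vehicle lungs at 7 h, 13.56 and 13.49 with mepenzolate at 7 h, 13.50 and 13.51 in vehicle lungs at 25 h, and 13.52 and 13.51 with mepenzolate at 25 h. The 8 values spanned a factor of 1.05, a range smaller than that of all but 0.181% of the genes tested. The highest value of each array was 13.85 to 13.98, so this probe lay near the top of the scale, and whether that narrowed its range was not tested.

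Sftpb encodes SP-B, without which surfactant does not spread. Its levels were 12.84 and 12.84 in vehicle and 12.78 and 12.88 in mepenzolate lungs at 7 h, and 12.91 and 12.78 in vehicle and 12.80 and 12.76 in mepenzolate lungs at 25 h. The groups overlapped at both times.

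The collectin genes varied more, and they varied between replicates. Sftpa1, which encodes SP-A, stood at 12.99 and 13.05 in vehicle and 13.12 and 12.92 in mepenzolate lungs at 7 h, and at 13.06 and 12.94 in vehicle and 12.96 and 12.91 in mepenzolate lungs at 25 h. Sftpd, which encodes SP-D, had the widest range of the 10 genes, a factor of 1.37. Its levels were 10.93 and 10.96 in vehicle and 11.21 and 10.76 in mepenzolate lungs at 7 h, and 11.11 and 10.76 in vehicle and 10.84 and 11.04 in mepenzolate lungs at 25 h. The mepenzolate arrays at 7 h held the highest Sftpd value and, with 1 vehicle array at 25 h, the lowest. Over the 8 arrays Sftpa1 and Sftpd gave the highest correlation among the 45 pairs of members, r = 0.75, and Sftpb and Sftpc the lowest, r = -0.48. The median pair had r = 0.22, and 31 pairs lay above 0. These values describe 8 arrays whose members share background and scaling.

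Genes of the lamellar body came next. Abca3 encodes the transporter that moves phospholipid into lamellar bodies, and stood at 10.52 and 10.61 in vehicle and 10.54 and 10.43 in mepenzolate lungs at 7 h. At 25 h it stood at 10.56 and 10.51 in vehicle and 10.55 and 10.50 in mepenzolate lungs. Lamp3 encodes a membrane protein of lamellar bodies and is also a gene of mature dendritic cells. Its levels were 11.50 and 11.51 in vehicle and 11.62 and 11.43 in mepenzolate lungs at 7 h, then 11.44 and 11.32 in vehicle and 11.53 and 11.44 in mepenzolate lungs at 25 h. At 25 h the Lamp3 values of the groups touched but did not overlap, with mepenzolate arrays higher. Of 13 tested dendritic cell markers 4 were higher with mepenzolate at 25 h (Ccr7, Fscn1, Relb and Socs2). The other 9, with Ccl22, Ccl17 and Cd83 among them, were lower. Of all genes tested 41.3% were higher, and the median was -0.12 in the list against -0.023 over all genes. The list is not limited to genes of mature dendritic cells. The part of dendritic cells in the Lamp3 value was not tested. Napsa encodes napsin A, an aspartic protease that helps process the SP-B precursor. It stood at 10.40 and 10.43 in vehicle and 10.57 and 10.43 in mepenzolate lungs at 7 h, and at 10.36 and 10.38 in vehicle and 10.56 and 10.19 in mepenzolate lungs at 25 h. The mepenzolate arrays at 25 h bracketed all other Napsa values but that of the first mepenzolate array at 7 h.

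Slc34a2 encodes a sodium phosphate cotransporter of the apical membrane that takes up phosphate released from surfactant phospholipid. Its levels were 12.59 and 12.63 in vehicle and 12.58 and 12.63 in mepenzolate lungs at 7 h, and 12.59 and 12.52 in vehicle and 12.48 and 12.58 in mepenzolate lungs at 25 h. Lpcat1 encodes an acyltransferase that makes the dipalmitoyl phosphatidylcholine of surfactant. It stood at 11.24 and 11.19 in vehicle and 11.16 and 11.09 in mepenzolate lungs at 7 h, and at 11.37 and 11.26 in vehicle and 11.26 and 11.22 in mepenzolate lungs at 25 h. Mepenzolate arrays were the lower ones at 7 h, and at 25 h the groups met at 11.26. Etv5, an ETS transcription factor downstream of fibroblast growth factor signals that keeps type 2 cells in their state, stood at 9.54 and 9.52 in vehicle and 9.54 and 9.56 in mepenzolate lungs at 7 h. At 25 h it stood at 9.47 and 9.48 in vehicle and 9.43 and 9.36 in mepenzolate lungs, so all 4 arrays at 25 h lay below all 4 at 7 h.

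**Figure D2:**
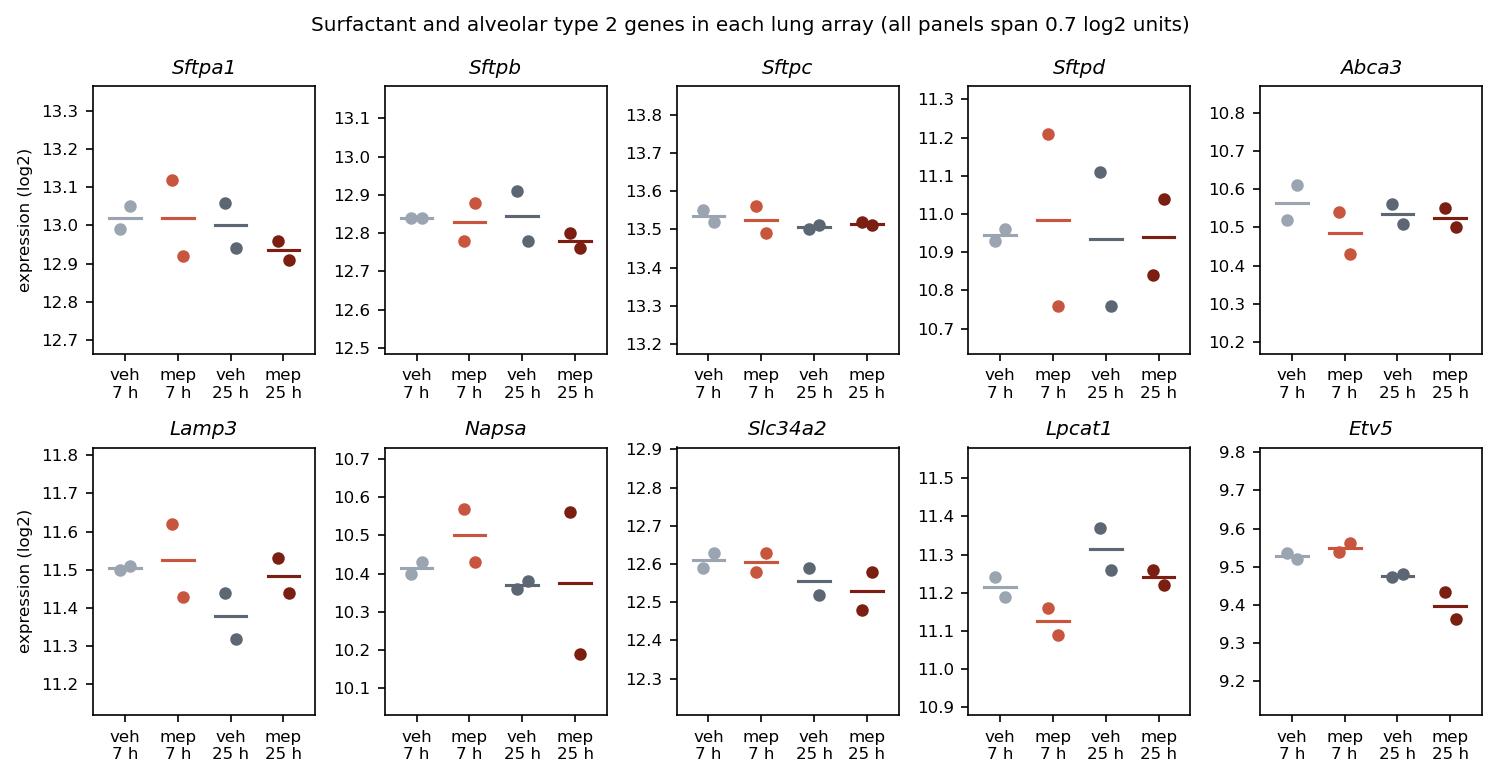
Expression (log2, y axis) of the 10 genes in each array, by group (x axis, veh for vehicle and mep for mepenzolate, at 7 h or 25 h). Points are single arrays, bars the mean of 2, and every panel spans the same number of log2 units. Sftpc hardly moves, Sftpd and Napsa differ most between replicates, and Etv5 is lower on all 4 arrays at 25 h.

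At 7 h none of the 10 genes passed the test of mepenzolate against vehicle lungs. The log2 differences, mepenzolate minus vehicle, ran from -0.083 (Lpcat1) to 0.090 (Napsa), with 5 genes higher and 5 lower, where 43.6% of all genes tested were higher. The median was -0.0026, against -0.013 over all genes. Limma called 0 of 10, and 0 of all genes tested (0%), with 357 genes at an unadjusted p under 0.05 (2.39%), none of them a member. The smallest unadjusted p of a member was 0.326 (Lpcat1, limma). The arrays of the groups did not overlap for 3 members, Napsa and Etv5 (higher) and Lpcat1 (lower), against 23.7% of all genes. The intervals of the differences (95%, from limma's moderated standard errors) had half-widths of 0.17 (Etv5 and Sftpc) to 0.38 (Sftpd). For Sftpc the ratio of mepenzolate to vehicle was 0.993 with an interval of 0.884 to 1.11, and for Sftpd 1.03 with 0.787 to 1.34, the widest bound of the 10. Leaving out the second mepenzolate array moved Sftpd from 0.039 to 0.27, Napsa from 0.090 to 0.16, Lamp3 from 0.018 to 0.11 and Sftpa1 from 0.00099 to 0.098. None of these passed without it (adjusted p = 0.971 to 0.982 in limma).

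At 25 h, the time the study used for its gene set analysis, none of the 10 genes passed either. Differences ran from -0.079 (Etv5) to 0.10 (Lamp3), with 4 genes higher and 6 lower, where 41.3% of all genes tested were higher. The median was -0.019, against -0.023 over all genes. Limma called 0 of 10, and 0 of all genes tested (0%), with 599 at an unadjusted p under 0.05 (4.01%). The smallest unadjusted p of a member was 0.289 (Lamp3). Groups did not overlap for 3 members, Sftpc and Lamp3 (higher) and Etv5 (lower), against 36.6% of all genes. The ratio for Sftpc was 1.01 with an interval of 0.898 to 1.13, and no member's interval reached beyond a 1.31-fold change.

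By role, the intervals (95%, limma) bounded the treatment differences as follows. For the surfactant proteins, Sftpa1 had 0.00099 (-0.21 to 0.21) at 7 h and -0.068 (-0.28 to 0.14) at 25 h, and Sftpb -0.0095 (-0.20 to 0.18) and -0.067 (-0.25 to 0.12). Sftpd, at 0.039 (-0.35 to 0.42) and 0.0026 (-0.38 to 0.39), was the least precisely measured. For the lamellar body genes, Abca3 had -0.079 (-0.26 to 0.10) and -0.013 (-0.20 to 0.17), Lamp3 0.018 (-0.19 to 0.23) and 0.10 (-0.11 to 0.32), and Napsa 0.090 (-0.19 to 0.37) and 0.0081 (-0.27 to 0.29). For phosphate and lipid handling, Slc34a2 had -0.0062 (-0.19 to 0.17) and -0.026 (-0.21 to 0.15), and Lpcat1 -0.083 (-0.27 to 0.10) and -0.073 (-0.26 to 0.11). Lpcat1 was thus below vehicle by a like amount at both times, though every interval holds 0. Etv5 had 0.021 (-0.15 to 0.19) and -0.079 (-0.25 to 0.088).

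The 10 genes differed among themselves in how much they varied over the 8 arrays. Below the median range of all genes tested (0.31) lay Sftpc (0.069), Sftpb (0.15), Slc34a2 (0.15), Abca3 (0.17), Etv5 (0.20), Sftpa1 (0.21), Lpcat1 (0.28) and Lamp3 (0.30). Above it lay Napsa (0.38) and Sftpd (0.46). Sftpd also had the largest standard deviation within groups, 0.22, against 0.026 for Sftpc and 0.027 for Etv5. For Sftpc and Etv5 limma's intervals are wider than this spread alone would give, since the test draws each gene's variance toward that of all genes. For Sftpd and Napsa the same step makes them narrower. Their standard errors in the treatment comparisons were 0.17 and 0.12, beside standard deviations within groups of 0.22 and 0.14. The fold bounds given for Sftpd rest on these narrower intervals.

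Averaged over both times the treatment difference ran from -0.078 (Lpcat1) to 0.061 (Lamp3), with intervals that stayed within a 1.22-fold change, 4 genes higher against 40% of all genes, and 0 with arrays that did not overlap against 2.41%. The treatment difference at 25 h minus that at 7 h ran from -0.10 (Etv5) to 0.086 (Lamp3), above 0 in 4 members and in 48.3% of all genes. In both, limma called 0 of 10 and 0 of all genes tested (0%), with 563 genes (3.77%) and 400 genes (2.68%) at an unadjusted p under 0.05 and 0 members among them. Etv5 stood higher on both mepenzolate arrays at 7 h and lower on both at 25 h, and the test of that difference gave an unadjusted p = 0.359 in limma. The dimmer Etv5 probe had 0.079 (-0.15 to 0.31) at 7 h and -0.15 (-0.38 to 0.078) at 25 h. Its groups did not overlap either, though at 7 h only just (9.271 against 9.27). The change between the times was not tested for that probe.

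**Figure D3:**
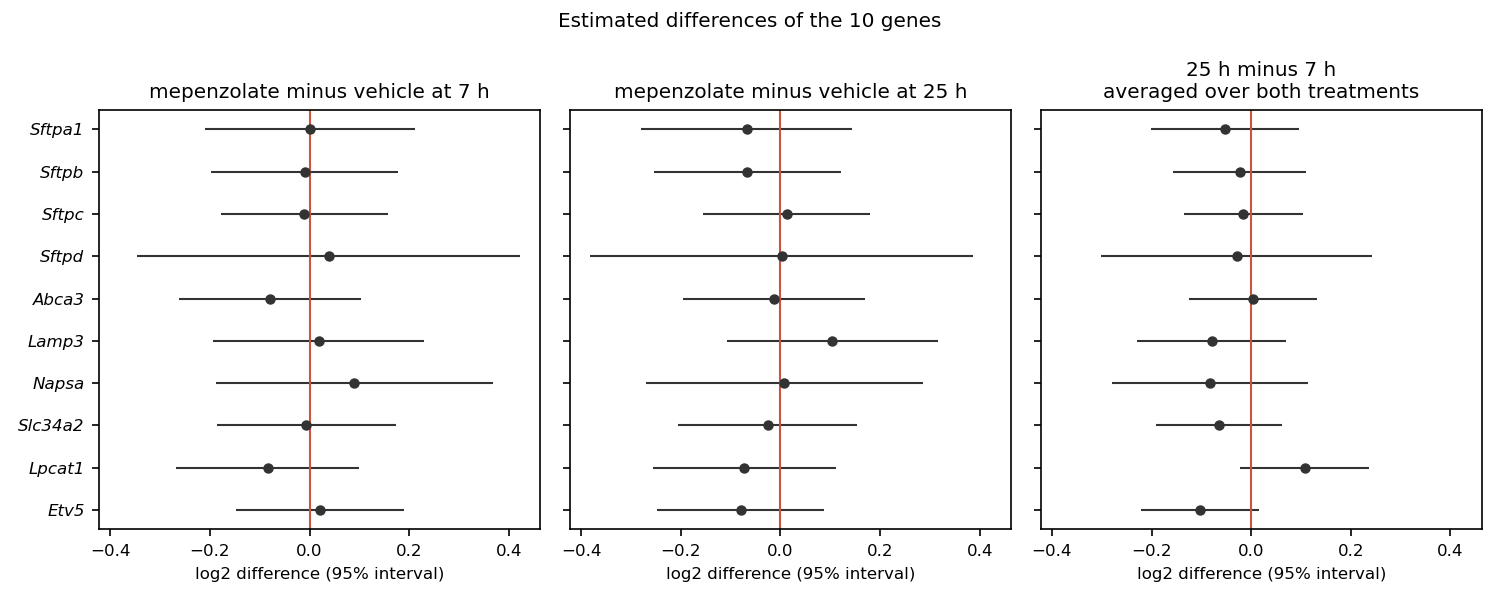
Log2 difference (x axis) with its 95% interval for each of the 10 genes (y axis), for mepenzolate minus vehicle at 7 h and at 25 h and for 25 h minus 7 h over both treatments. Every interval includes 0, and Sftpd has the widest ones (half-width 0.38 in the treatment comparisons).

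Between 7 h and 25 h none of the 10 genes passed the test. Over both treatments, with 4 arrays against 4, the differences (25 h minus 7 h) ran from -0.10 (Etv5) to 0.11 (Lpcat1). There were 8 members lower and 2 higher, where 50.7% of all genes were higher, with a median of -0.041 against 0.0014 over all genes tested. Limma called 0 of 10, while it called 33 of all genes tested (0.221%), 6 higher and 27 lower, and 1342 genes (8.97%) had an unadjusted p under 0.05. Etv5 (-0.10, interval -0.22 to 0.017, unadjusted p = 0.0828, adjusted p = 0.632, limma) was the 1 member whose arrays did not overlap between the times, against 6.69% of all genes. Its dimmer probe gave -0.076 (-0.24 to 0.084), with values of 9.27, 9.18, 9.27 and 9.34 at 7 h (vehicle arrays first) that overlapped the 9.24, 9.28, 9.20 and 9.03 at 25 h. Lpcat1 had 0.11 (-0.022 to 0.24, unadjusted p = 0.0931, adjusted p = 0.656, limma). Hours after dosing and the time of day at sampling cannot be told apart here.

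Around these genes stand those that supply surfactant lipid, and although none passed the test between the times, Scd1 and Acaca came closest to it among the 20 of that list. Scd1, the desaturase that makes monounsaturated fatty acids, stood at 12.49, 12.56, 12.56 and 12.38 at 7 h and at 12.87, 12.87, 13.02 and 12.86 at 25 h, vehicle arrays first. The groups did not overlap, and the difference was 0.41 ± 0.065 (SE, unadjusted p = 0.00024, adjusted p = 0.0705, limma), which missed the threshold. Acaca, acetyl-CoA carboxylase, which commits acetyl-CoA to fatty acid synthesis, stood at 8.93, 8.92, 8.89 and 8.69 at 7 h and at 9.20, 9.13, 9.29 and 9.23 at 25 h. It too was higher on all 4 later arrays, by 0.36 ± 0.064 (adjusted p = 0.0964, limma). Fabp5, a fatty acid binding protein, had 0.39 ± 0.10 (adjusted p = 0.224), Fasn, fatty acid synthase, 0.17 ± 0.067 (adjusted p = 0.475), and Lpin1, a phosphatidate phosphatase, -0.23 ± 0.061 (adjusted p = 0.229, limma). Of the 20 lipid synthesis genes 0 passed and 8 had an unadjusted p under 0.05, 5 higher and 3 lower, beside 8.97% of all genes. The 3 lower were Lpin1, Elovl6 (-0.19 ± 0.069) and Chka (-0.13 ± 0.053). The whole list had 10 genes higher and 10 lower, with a median of -0.002 against 0.0014 over all genes tested. Scd1, Fabp5, Fasn and Elovl6 were singled out after their values had been seen. Of 16 alternatives limma called Scd1 under 3, with adjusted p from 0.00681 to 0.334 over all of them. These were the replicate block (adjusted p = 0.0485), the stricter filter on dim genes and the trend on intensity with robust variances. Acaca was called under 4, the same filter and trend, quantile normalization and the mean of all probes, with adjusted p from 0.0318 to 0.338 over all of them. These genes are expressed in other lung cells too, and which cells the difference came from was not tested.

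Other markers of type 2 cells were mixed over time. Cxcl15, a chemokine of lung epithelium, had a difference of 0.30 ± 0.062 (adjusted p = 0.131, limma), and of 16 alternatives only a trend on intensity with robust variances called it (adjusted p = 0.0262). There was no overlap between 12.35, 12.24, 12.40 and 12.27 at 7 h and 12.63, 12.55, 12.69 and 12.60 at 25 h. Hc, complement component C5, had 0.51 ± 0.15 (adjusted p = 0.270) and Mlc1 had -0.31 ± 0.077 (adjusted p = 0.197, limma), both with overlapping arrays. Cxcl15 and Hc were chosen after their values had been seen. Of 17 tested markers in this list 0 passed and 5 had an unadjusted p under 0.05, 4 higher and 1 lower, beside 8.97% of all genes. Scd1 belongs to this list as well as to that of lipid synthesis and is among the 4 higher, so the 2 counts are not separate. The list had 8 genes higher and 9 lower, with a median of -0.021. The mean over the list was -0.17 on the second mepenzolate array at 7 h and -0.037 to 0.090 elsewhere, and Chil1, a chitinase-like protein gene, was at 10.28 on it against 11.95 to 12.61.

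**Figure D4:**
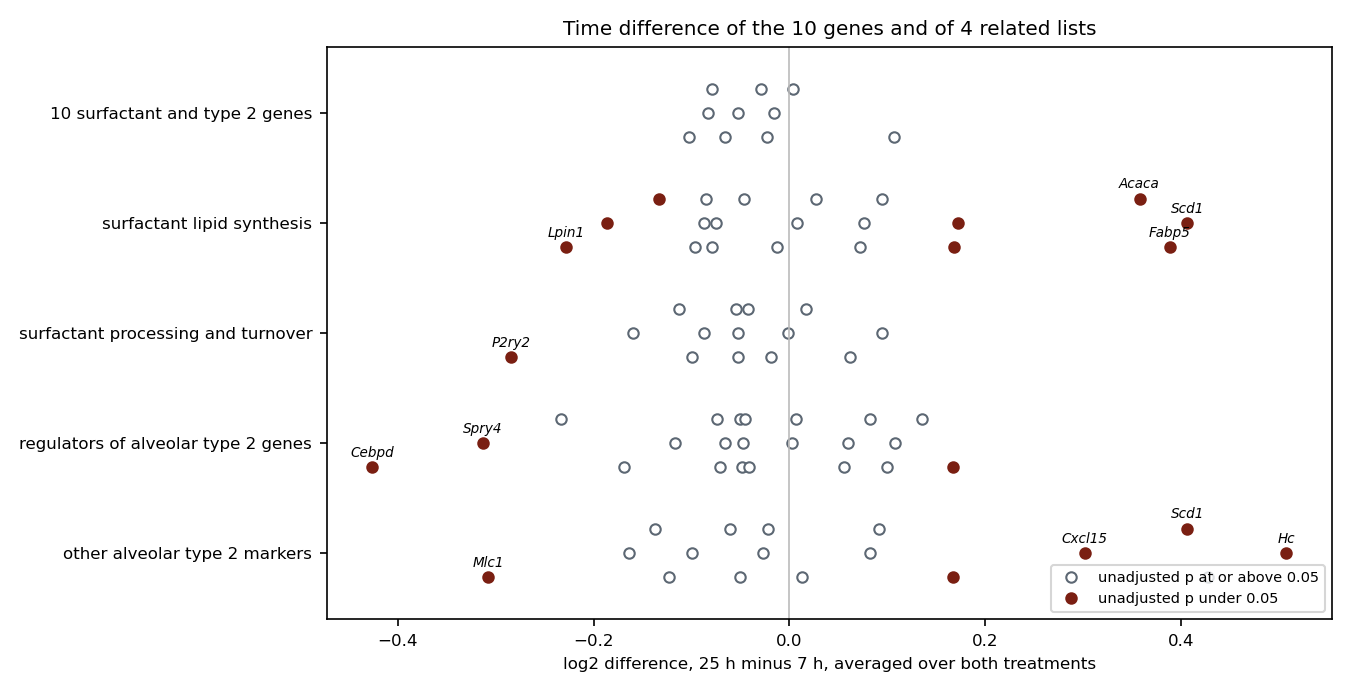
Log2 difference, 25 h minus 7 h over both treatments (x axis), of the 10 genes and of every tested gene of 4 related lists (rows). Filled points have an unadjusted p under 0.05 and open points do not. The 10 genes lie between -0.10 and 0.11. Scd1 (0.41), Acaca (0.36) and Hc (0.51) lie to the right, and Cebpd (-0.43), Spry4 (-0.31) and Mlc1 (-0.31) to the left. No point passed the adjusted threshold.

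No regulator of these genes passed the treatment comparisons. Nkx2-1 stood at 9.71 and 9.69 in vehicle and 9.71 and 9.67 in mepenzolate lungs at 7 h, and at 9.76 and 9.54 in vehicle and 9.64 and 9.65 in mepenzolate lungs at 25 h. The treatments overlapped at both times, and the differences were -0.010 (-0.22 to 0.19) at 7 h and -0.0015 (-0.21 to 0.20) at 25 h. Nkx2-1, and Foxa1, Foxa2 and Cebpa below, were named for their role and outside the rule for named genes. Of 22 regulators 0 passed at either time and 0 had an unadjusted p under 0.05. There were 11 higher at 7 h and 10 at 25 h, beside 43.6% and 41.3% of all genes tested. The smallest p at 7 h belonged to Gata6 (0.16 ± 0.096), Cebpd (-0.20 ± 0.14) and Fgf7 (0.11 ± 0.11). At 25 h they belonged to Spry2 (0.15 ± 0.079) and Spry4 (-0.22 ± 0.12), feedback inhibitors of growth factor signalling, and Cebpd (0.19 ± 0.14). Over time Cebpd, a C/EBP factor, had -0.43 ± 0.10 (adjusted p = 0.181) and Spry4 -0.31 ± 0.084 (adjusted p = 0.237, limma), both with overlapping arrays. Foxa2 had 0.17 ± 0.069 (adjusted p = 0.521, limma), Cebpa 0.14 ± 0.0725 and Foxa1 -0.047 ± 0.066. Of the 22, 3 had an unadjusted p under 0.05, 1 higher (Foxa2) and 2 lower (Cebpd and Spry4), beside 8.97% of all genes.

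No gene of lipid synthesis or surfactant turnover passed the treatment comparisons. For the counts below, 43.6% of all genes tested were higher at 7 h (median -0.013) and 41.3% at 25 h (median -0.023). At 7 h 5 of 20 lipid synthesis genes were higher, with a median of -0.051, and at 25 h 10 of 20, with a median of 0.0078. The genes of smallest p were Lpin1 (-0.18 ± 0.086), Acaca (-0.13 ± 0.090) and Fasn (-0.14 ± 0.095) at 7 h. At 25 h they were Cept1 (0.18 ± 0.079), which completes phosphatidylcholine synthesis, Chka (0.16 ± 0.075), choline kinase, and Elovl1 (-0.14 ± 0.087). Of 14 processing and turnover genes 5 were higher at 7 h and 4 at 25 h. They were led by the nucleotide receptor gene P2ry2 (-0.20 ± 0.12), the lipid transporter gene Abcg1 (-0.11 ± 0.080) and Hps1 (-0.11 ± 0.079), a gene of lysosome-related organelles, at 7 h. Hps1 (-0.17 ± 0.079), the phospholipase gene Pla2g6 (-0.14 ± 0.081) and Rab3d (0.12 ± 0.097) led at 25 h. Limma passed 0 genes of either list, and 0 had an unadjusted p under 0.05 at either time. Of the other type 2 markers 5 of 17 were higher at 7 h (median -0.055) and 10 at 25 h (median 0.033), with 0 at an unadjusted p under 0.05. Those of smallest p at 7 h were Mlc1 (-0.24 ± 0.11), Lgi3 (-0.23 ± 0.13) and Chil1 (-1.06 ± 0.56), which was low on the second mepenzolate array, as given above. At 25 h they were Ppp1r14c (0.096 ± 0.083), Mlc1 (-0.12 ± 0.11) and Ctsh (0.115 ± 0.11).

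Among neighbouring epithelial lists, no gene passed the treatment comparisons. Of all genes tested 43.6% were higher at 7 h (median -0.013) and 41.3% at 25 h (median -0.023). The alveolar type 1 list's median difference was 0.0096 at 7 h, with 10 of 18 higher, and -0.048 at 25 h, with 5 of 18 higher. Ager, a marker of type 1 cells, had 0.040 ± 0.079 at 7 h and -0.10 ± 0.079 at 25 h. The club and airway secretory list had a median of -0.19 at 7 h, with 13 of 16 lower and 0 passing. Of the 16, 6 had an unadjusted p under 0.05, all lower, beside 2.39% of all genes. At 25 h 10 of 16 were higher, with a median of 0.052 and 1 at an unadjusted p under 0.05, beside 4.01%. Of the secretoglobin genes of this list, Scgb1a1 had 0.023 ± 0.087 at 7 h and 0.12 ± 0.087 at 25 h. Scgb3a2 had -0.23 ± 0.12 and 0.20 ± 0.12, and Scgb3a1 -0.51 ± 0.13 and -0.012 ± 0.13. Of 16 ciliated cell markers 15 were lower at 7 h (median -0.23) and 14 higher at 25 h (median 0.064), with 0 at an unadjusted p under 0.05. The second mepenzolate array at 7 h was at -0.45 in both airway lists, as given above. On the first mepenzolate array at 7 h the 2 lists differed. The club list was at -0.0094 on it, below the 0.19 and 0.24 of the vehicle arrays at 7 h. The ciliated list was at 0.12 on it, above the -0.0057 and 0.11 of those vehicle arrays. The part of the second array in these 7 h values was not tested. Sftpa1, Sftpb, Sftpd and Napsa are also made by some airway cells. Whether airway cells contributed to their values was not tested, and beside the club list their 7 h differences were 0.00099, -0.0095, 0.039 and 0.090. No difference between the lists was tested.

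The genes whose pattern was most like the mean of the 10 members over 8 arrays were Atp6v1a (r = 0.989), Dnajc1 and Plekha8 (0.965 each), Lcn2 (0.964) and Ccl9 (0.948). For Sftpc alone they were Stxbp5 (0.989), Eloa and Rpp30 (0.982 each), Lactb2 (0.978) and Btbd10 (0.977). With 8 arrays and 14953 genes to choose from, such values describe these arrays and were not tested.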

How the data were processed

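Whole lung RNA was hybridised to Affymetrix mouse gene arrays. The values the authors deposited are log2 levels of 34760 probes, summarised with RMA per the submitters' processing notes, version not stated. That method removes background, equalises the arrays and compresses differences of dim genes. Arrays carry no read depth, so their number limits precision.

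Of the probes 21640 had 1 symbol in the platform annotation, 1321 several and 11799 were unnamed here. The brightest probe per gene gave 19937 genes. Genes whose mean reached the 25th percentile (log2 5.93), 14953 in all, entered a model in limma 3.58.1 (R 4.3.3), with 1 mean per group, 8 arrays, 4 residual and 4.09 prior degrees of freedom, and Benjamini-Hochberg adjustment over all genes tested at 0.05. The comparisons share arrays. The fit was tested on simulated data with independent noise and added differences larger than any member's. That test does not bear on differences as small as those of the members. Alternatives left out each array, weighted the arrays, blocked on replicate number, dropped or tightened the filter (50th percentile), averaged all probes per gene, quantile-normalized or median-centred the arrays, or let variance follow intensity with robust moderation.

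Members and lists were chosen with earlier results of these data known. All members were described. Of related lists, genes that passed and the 3 of smallest p per treatment comparison could be named, and of other cell types the first 3. The 5 genes most correlated with the members' mean and with Sftpc were named too.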

Additional observations from a re-analysis of the deposited data

How the results depend on the processing

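No member passed under any of the 16 alternatives in any of the 5 comparisons (smallest adjusted p = 0.368, limma; smallest unadjusted p = 0.0297, Napsa between 25 h and 7 h without the first mepenzolate array at 25 h), and the largest member difference under them was 0.27. Of 400 member values under the 8 settings that kept all arrays 11 changed sign, and of 400 with 1 array left out 55 did. Quantile normalization gave at 7 h -0.033 for Sftpa1 and 0.018 for Sftpc, at 25 h -0.018 for Sftpd and -0.013 for Napsa, and for the change of the treatment difference -0.00056 for Sftpc and -0.013 for Lpcat1. Median centring gave -0.0049 for Sftpa1 at 7 h, 0.014 for Abca3 and 0.0016 for Slc34a2 at 25 h, -0.017 for Abca3 between 25 h and 7 h, and 0.014 for Slc34a2 in the change. Without 1 array the sign turned at least once, with these ranges, at 7 h for Sftpa1 (-0.096 to 0.098), Sftpb (-0.061 to 0.042), Sftpc (-0.045 to 0.024), Sftpd (-0.19 to 0.27), Lamp3 (-0.075 to 0.11) and Slc34a2 (-0.03 to 0.018), and at 25 h for Sftpd (-0.17 to 0.18), Abca3 (-0.039 to 0.013), Napsa (-0.18 to 0.19) and Slc34a2 (-0.074 to 0.023). It also turned over both times for Sftpa1 (-0.082 to 0.015), Sftpc (-0.016 to 0.018), Sftpd (-0.093 to 0.13), Napsa (-0.043 to 0.14) and Slc34a2 (-0.04 to 0.0084). It also turned between 25 h and 7 h for Sftpb (-0.054 to 0.0071), Sftpc (-0.033 to 0.0015), Sftpd (-0.14 to 0.085), Abca3 (-0.022 to 0.029) and Napsa (-0.17 to 0.009), and in the change of the treatment difference for Sftpa1 (-0.17 to 0.028), Sftpb (-0.12 to 0.0036), Sftpc (-0.011 to 0.058), Sftpd (-0.26 to 0.19), Lamp3 (-0.0069 to 0.18), Napsa (-0.26 to 0.1), Slc34a2 (-0.068 to 0.029) and Lpcat1 (-0.047 to 0.068).

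Over all genes, the count called between 25 h and 7 h (33) became 73 with the replicate block, 72 with the stricter filter and 123 with an intensity trend and robust estimation. It was 11 to 34 without 1 array, below 33 by over 1.5 times without the first (14) or second (11) vehicle array at 7 h, the second mepenzolate array at 7 h (21), or the second vehicle (12) or second mepenzolate array (12) at 25 h. The replicate block gave 1 call at 25 h. Leaving out 1 array gave 0 to 2 calls at 7 h, over both times and for the change, and 0 to 1 at 25 h. No cause of these changes was tested. The stricter filter kept fewer genes, and the fits without 1 array had fewer arrays. Same-numbered arrays deviated together (r over 0.1) in 3 of 6 pairs of groups. These were the pairs among vehicle at 7 h, mepenzolate at 7 h and mepenzolate at 25 h, with r from 0.19 to 0.40. Pairs with vehicle at 25 h had r from -0.021 to 0.027. The main model did not take the numbers as pairs, and whether same-numbered arrays share a source was not tested. The block changed no member's call. It did bring Scd1 past the threshold between 25 h and 7 h (adjusted p = 0.0485, limma, from 0.0705).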
